A study of Mus musculus with 6 samples.

Results

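The 41 genes described here encode proteins that copy chromosomal DNA or set its start. They were chosen by name, as the rows of the expression table whose Ensembl identifier carried 1 of 41 listed symbols, and all 41 were found among the 39171 genes of the table. By role they comprised 10 origin licensing genes (Orc1, Orc6, Cdc6, Cdt1 and Mcm2 to Mcm7), 6 helicase activation genes (Mcm10, Cdc45 and Gins1 to Gins4), 5 polymerase and primase genes (Pola1, Pola2, Prim1, Pold1 and Pole) and 5 genes of the sliding clamp and its loader (Pcna and Rfc2 to Rfc5). The other members were 3 subunits of the single-strand binding protein RPA, 2 genes of Okazaki fragment maturation (Fen1 and Lig1), 3 of nucleotide supply (Rrm1, Rrm2 and Tyms), 4 of chromatin and DNA methylation copying (Chaf1a, Chaf1b, Uhrf1 and Dnmt1) and 3 regulators of the G1/S transition (Ccne1, Ccne2 and E2f1). Poly(A) RNA had been sequenced from the ventricles of wild-type mice of the outbred CD-1 stock at 2 days after birth (P2, 3 libraries) and at 1 day after birth (P1, 3 libraries). The animals were not manipulated, and the labels give no sex. They state 3 hearts per age and tie no library to a separate animal beyond that, so p-values here rest on the variation among these samples, which may be technical.

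Before a cell copies its DNA, the origin recognition complex, Cdc6 and Cdt1 load the MCM2-7 helicase on origins as an inactive double ring. At the start of S phase, Cdc45 and the GINS complex join it and turn it into a moving helicase, DNA polymerase alpha-primase lays primers, and replication factor C loads the PCNA ring that holds the other polymerases on the template. In the mouse heart the first days after birth are known as the time in which muscle cells pass through their last rounds of DNA synthesis, while endothelial cells, fibroblasts and other cells of the ventricle also divide.

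Expression is given as FPKM, in which a gene's fragments are divided by its transcript's length and the library's mapped fragments, so levels can be compared between genes on a scale corrected for transcript length. In each library 13355 to 13429 genes had at least 1 FPKM. Without read counts in the table, the depth of sequencing is unknown. Summed FPKM per library lay between 807632 and 858436 in P2 and between 716968 and 754510 in P1. Muscle genes were read as a check that heart muscle was present, which does not separate ventricle from atrium. Tnni3, Myl3, Tnnc1, Pln and Actn2 lay between 599.4 and 3867 FPKM in all libraries, and Tnni1, Myh7 and Ryr2 between 109.9 and 1795 FPKM. Myh6, Myl2 and Actc1, defining genes of heart muscle, were listed at 0 in all 6 libraries, and Tnnt2 was listed at 0 in the 3 P1 libraries only. Of 8 lists of cell type markers, the summed FPKM of endothelial markers was 431.2 to 441.4 in P2 and 378.6 to 426.3 in P1. That of mural cell markers was 137.2 to 151.7 in P2 and 114.4 to 131 in P1. Of the 5 mural markers only Rgs5 did not overlap between ages, at a mean of 93.67 FPKM in P2 and 72.38 FPKM in P1. The others overlapped, with means higher in P2 for Kcnj8 and Myh11 and lower for Pdgfrb and Cspg4. Sums were lower in P2 for atrial markers (546.8 to 776.9 in P2 and 953.1 to 1502 in P1), epicardial markers (27.85 to 34.97 in P2 and 37.98 to 40.78 in P1) and erythroid markers (754.6 to 952.9 in P2 and 961.8 to 1359 in P1). The ages overlapped for the 6 fibroblast markers (977.5 to 1133 in P2 and 914.8 to 1038 in P1) and the 6 macrophage markers (15.52 to 16.93 in P2 and 16.45 to 19.49 in P1). The 12 cardiomyocyte markers summed to 15920 to 16670 FPKM in P2 and 12620 to 13090 FPKM in P1. Most of this difference was Tnnt2, which averaged 3034 FPKM in P2 and summed as 0 in P1. The part of these differences in the results was not tested. In whole ventricles, fewer cells of a type and less RNA per cell cannot be told apart.

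The ventricles of both ages held the replication transcripts at moderate levels. Over all 6 libraries the median of the 41 mean levels was 16.0 FPKM, with a range of 0.653 to 60.8 FPKM, and 31 members had at least 10 FPKM. Of the 40 members tested, 29 stood at or above the median level of all tested genes, which was 10.7 FPKM. Rrm2, Pcna, Rpa1 and Rrm1 were the most abundant, and Fen1, Orc1 and Gins3 the least. No member was listed at 0 in any library. The SD between libraries of 1 age was small, at a median of 5.07% of the mean in P2 and 5.59% of the mean in P1.

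**Figure D1:**
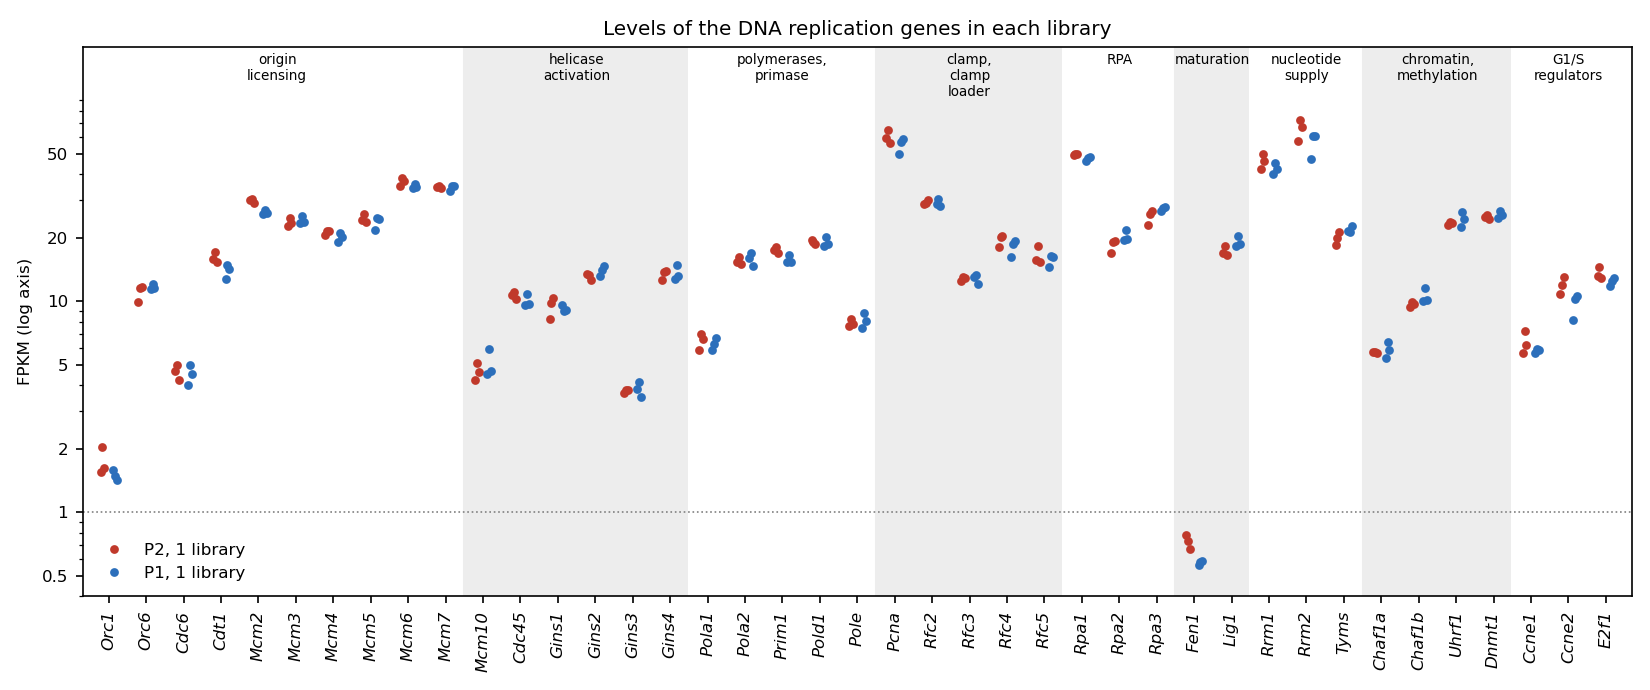
FPKM of the 41 DNA replication genes on a log axis, ordered by role, with 1 point per library, P2 left of P1 for each gene. Most genes lie between 5 and 50 FPKM with the libraries of both ages close together, and Fen1 is the only gene below the dotted line at 1 FPKM, the minimum mean for the test.

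The transcripts of the replication machinery differed little between P2 and P1. In limma on log2(FPKM + 1), 0 of 40 tested members had a Benjamini-Hochberg adjusted p under 0.05, against 0.161% of all 13624 tested genes (22 genes). On that scale the change of a gene at a low level is understated. At an unadjusted limma p under 0.05, 4 members (10%) were higher in P2, where 10.7% of all tested genes were, and 1 member (2.5%) was lower, where 7.89% of all tested genes were. All P2 libraries lay above all P1 libraries for 6 members (15%), against 14.4% of tested genes, and below them for 4 members (10%), against 10.6%. These shares were near those of all genes, apart from the lower share at unadjusted p, which rests on Lig1 alone. The log2 change, P2 minus P1, had a median of 0.021 over the members and of 0.014 over all tested genes, and ranged from -0.14 (Lig1) to 0.28 (Ccne2). It was above 0 for 23 members and below 0 for 17.

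For the FPKM as deposited and the variation among these libraries, the intervals show how large a difference could have been missed. They do not cover a change of library scaling. With each library rescaled to an equal FPKM sum, the Mcm7 estimate was -0.161, below the lower bound of -0.0835 of its interval. The 95% interval of the log2 change lay wholly within 0.25 on either side of 0 for 22 of 40 members, and within 0.5 for 38 of 40. The lowest bound was -0.36, for Mcm10, and the highest was 0.54, for Ccne2, which corresponds to a 1.45-fold higher level in P2 on the FPKM + 1 scale. Rpa1 had the narrowest interval, from -0.011 to 0.15. With 3 libraries against 3, the smallest p that an exact permutation test can give is 0.10.

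**Figure D2:**
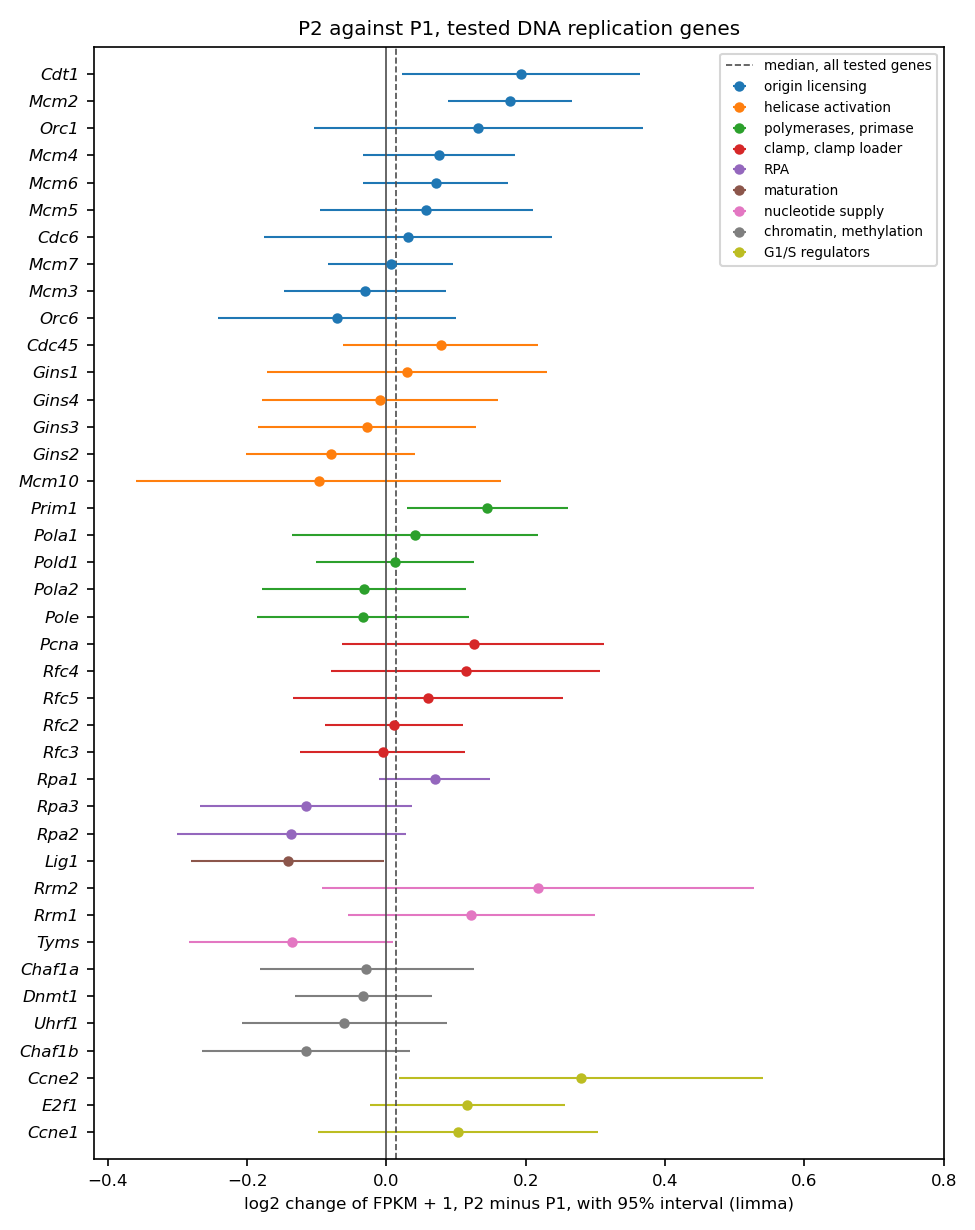
Log2 change of FPKM + 1, P2 minus P1, with its 95% limma interval for the 40 tested members, coloured by role. The estimates lie between -0.14 and 0.28 around the dashed median of all tested genes at 0.014, and most intervals cross 0.

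The sign of such small differences depends on how the libraries are scaled. With each library rescaled to an equal FPKM sum, the median log2 change of all genes moved to -0.14 and that of the members to -0.14 too, and 18 members changed sign. In that setting limma called 8 of 40 tested members lower in P2, where it called 2433 of 13634 tested genes in all, 2394 of them lower. The 8 were Tyms, Lig1, Rpa2, Chaf1b, Rpa3, Gins2, Dnmt1 and Uhrf1, at limma Benjamini-Hochberg adjusted p from 0.0285 to 0.0427. Relative to the median of all genes, 39 members kept one side under 4 scalings, with 20 above it and 19 below it. Pold1 was the exception, at most 0.014 from that median. Directions below are those of the FPKM as deposited, and the counts per role are given with both scalings where they differ.

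Origin licensing genes had a median log2 change of 0.064 and included the member with the smallest p, Mcm2. Of these 10 genes 8 had an estimate above 0, or 3 with equal FPKM sums, and 7 lay above the median of all genes under both scalings. Mcm2 (ENSMUSG00000002870, at chr6:88883474-88898780 of GRCm38 in GENCODE M21), a subunit of the helicase ring, had 30.04, 30.5 and 29.1 FPKM in P2 replicates 1 to 3, against 25.8, 27.0 and 26.1 FPKM in P1 replicates 1 to 3. The lowest P2 library stood above the highest P1 library. Its mean was 29.9 ± 0.718 FPKM in P2 and 26.3 ± 0.624 FPKM in P1 (SD of 3 libraries, here and below). The log2 change was 0.18 ± 0.037 (SE, here and below), which did not pass the limma test (Benjamini-Hochberg adjusted p = 0.126). With equal FPKM sums the log2 change of Mcm2 was 0.012. Cdt1, the loading factor that brings the helicase to origins, had 15.8, 17.1 and 15.3 FPKM in P2, against 12.7, 14.9 and 14.2 FPKM in P1. Here too every P2 library exceeded every P1 library, with P1 replicate 1 the lowest. The log2 change was 0.19 ± 0.070, with a limma Benjamini-Hochberg adjusted p of 0.232, and it was 0.033 with equal FPKM sums.

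The other subunits of the helicase ring overlapped between ages. Mean levels were 23.7 FPKM in P2 and 24.2 FPKM in P1 for Mcm3, 21.2 FPKM in P2 and 20.1 FPKM in P1 for Mcm4, and 24.7 FPKM in P2 and 23.7 FPKM in P1 for Mcm5. Mcm6 averaged 36.9 FPKM in P2 and 35.0 FPKM in P1, and Mcm7 34.7 FPKM in P2 and 34.5 FPKM in P1. Their log2 changes ran from -0.031 for Mcm3 to 0.076 for Mcm4, and with equal FPKM sums all 5 were below 0. Mcm4 was the lowest subunit in FPKM in every library, and Mcm6 stood 1.71 to 1.80 times above it. Mcm6 was the highest in all libraries but P1 replicate 3, in which Mcm7 was. Mcm7 carries the microRNA genes Mir25, Mir93 and Mir106b in the annotation, all listed at 0 in this table of poly(A) RNA.

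Orc1 stood far below the rest of the origin recognition complex. Orc1, the largest subunit, which binds and hydrolyses ATP, had 1.56, 2.04 and 1.63 FPKM in P2, against 1.58, 1.49 and 1.42 FPKM in P1. P2 replicate 2 was the highest, and the other P2 libraries overlapped P1. The log2 change was 0.13 ± 0.097 with an interval from -0.10 to 0.37. In FPKM, Orc3, which is not among the 41 genes, averaged 29.3 FPKM over the 6 libraries, 18.1 times the 1.62 FPKM of Orc1. The highest subunit was Orc4 in the 3 P2 libraries and Orc3 in the 3 P1 libraries. Orc6, the smallest subunit, had 9.85, 11.6 and 11.7 FPKM in P2, against 11.4, 12.0 and 11.5 FPKM in P1. P2 replicate 1 was the lowest, and the other P2 libraries lay within the P1 range. Cdc6, the ATPase that works with the origin recognition complex to load the helicase, averaged 4.62 ± 0.364 FPKM in P2 and 4.51 ± 0.479 FPKM in P1. Its ages overlapped too.

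E2F transcription factors are known regulators of licensing genes, and promoter sequence is therefore shown for members of this complex. Of the 41 members, 34 had a promoter in the RefSeq table of GRCm38.p6, with 41 promoters in all. Mcm4, Gins1, Gins2, Gins4, Pole, Rfc2 and Ccne2 had none there. The 4 E2F words TTTCCCGC, TTTCGCGC, TTTGCCGC and TTTGGCGC were searched on both strands in the 250 bases before each RefSeq start. Some of these windows lay in annotated exons, which filled all 250 bases for E2f1 and 208 bases for Pcna. Exons also filled all 250 bases of the Mcm7 window that held a word. In such windows they filled 166 bases for Dnmt1, 164 for Orc1, 106 for Gins3, 81 for Cdc6 and 34 for Rfc3. Sequence farther upstream was not searched, so a word missing from a window may still lie there. At least 1 of them was present for 10 of 34 members (29.4%), namely Orc1, Cdc6, Mcm5, Mcm6, Mcm7, Gins3, Pola1, Rfc3, Uhrf1 and Dnmt1. It was present for 1 of 22 mitosis genes (4.55%) and for 583 of 27025 genes in all (2.16%), or by promoter for 24.4% of the members' and 1.86% of all promoters. In the Mcm5 and Mcm6 promoters 2 words overlap on opposite strands. The word CCAAT occurred for 64.7% of members, 86.4% of mitosis genes and 37.5% of all genes. The cell cycle homology words TTTGAA and TTCGAA occurred for 20.6% of members, 40.9% of mitosis genes and 19.6% of all genes. No member promoter had words of 2 of these motifs overlapping. The promoters below are those of Mcm2, the member with the smallest p, which held no E2F word, of Mcm5 and Mcm6, which held overlapping words, and of Pola1, the lowest of its complex in mean level. They give the 250 bases before the RefSeq start, 5′ to 3′ on the gene's strand, with E2F words in capitals. A match describes letters only, not binding.
Mcm2, chr6:88898781-88899030, minus strand: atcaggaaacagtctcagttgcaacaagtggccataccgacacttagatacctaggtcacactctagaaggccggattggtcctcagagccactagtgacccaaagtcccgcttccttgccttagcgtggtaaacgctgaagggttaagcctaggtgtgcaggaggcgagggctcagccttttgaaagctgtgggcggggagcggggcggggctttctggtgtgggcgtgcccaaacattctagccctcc
Mcm5, chr8:75109259-75109508, plus strand: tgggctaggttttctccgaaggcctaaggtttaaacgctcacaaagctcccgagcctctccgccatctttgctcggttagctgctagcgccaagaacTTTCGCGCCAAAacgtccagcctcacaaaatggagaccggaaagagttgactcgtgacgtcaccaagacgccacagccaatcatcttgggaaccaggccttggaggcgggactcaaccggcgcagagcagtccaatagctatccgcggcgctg
Mcm6, chr1:128359706-128359955, minus strand: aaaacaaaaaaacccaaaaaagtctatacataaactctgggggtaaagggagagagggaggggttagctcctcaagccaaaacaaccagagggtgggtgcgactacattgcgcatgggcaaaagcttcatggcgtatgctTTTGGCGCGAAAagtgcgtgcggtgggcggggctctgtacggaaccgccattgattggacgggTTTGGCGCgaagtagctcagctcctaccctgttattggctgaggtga
Pola1, chrX:93632156-93632405, minus strand: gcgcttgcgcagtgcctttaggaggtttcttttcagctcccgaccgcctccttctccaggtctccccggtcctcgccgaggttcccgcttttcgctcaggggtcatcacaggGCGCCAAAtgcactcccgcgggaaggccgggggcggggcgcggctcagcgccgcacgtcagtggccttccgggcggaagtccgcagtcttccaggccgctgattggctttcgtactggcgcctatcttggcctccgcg
Read in the printed direction, the last bases of the Mcm5 words lie 146 and 142 bases before the start, those of the Mcm6 words 103, 99 and 40 bases before it, and that of the Pola1 word 131 bases before it. Mcm2, with no such word in this window, and Mcm5 and Mcm6, with 2 and 3, had overlapping 95% intervals of the log2 change. Overlap of intervals is no test of a difference, and whether such words go with the changes was not tested.

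Helicase activation genes did not differ in either direction beyond their spread. The median log2 change was -0.018, with 2 of 6 estimates above 0 and none with equal FPKM sums, and the ages overlapped for all 6. Cdc45, which joins the loaded ring to form the active helicase, had 10.7, 10.99 and 10.2 FPKM in P2, against 9.55, 10.8 and 9.69 FPKM in P1. P1 replicate 2 lay within the P2 range, and the other P1 libraries lay below it. The log2 change was 0.078 ± 0.057. Gins2, a subunit of the 4-part GINS complex, had 13.5, 13.3 and 12.6 FPKM in P2, against 13.2, 14.1 and 14.6 FPKM in P1. P1 replicate 1 fell between the P2 values, and the log2 change was -0.080 ± 0.050. Gins3, another GINS subunit, had 3.65, 3.78 and 3.77 FPKM in P2, against 3.85, 4.14 and 3.51 FPKM in P1. It was the lowest GINS subunit in FPKM in every library, and Gins2 stood 3.35 to 4.16 times above it. Gins1 averaged 9.44 ± 1.08 FPKM in P2 and 9.20 ± 0.374 FPKM in P1, and the ages overlapped. Gins4 had 12.6, 13.8 and 13.9 FPKM in P2, against 12.7, 14.8 and 13.2 FPKM in P1. Its P2 and P1 libraries also overlapped, with P1 replicate 2 the highest. Mcm10, a scaffold needed to start the helicase, averaged 4.62 ± 0.427 FPKM in P2 and 5.04 ± 0.790 FPKM in P1. P1 replicate 2, at 5.94 FPKM, was its highest library, and without it the log2 change moved to 0.008, against -0.097 with it. Gins2 and Gse1 overlap by 2758 bases on opposite strands in the annotation, and the sources used here do not give whether fragments were assigned by strand.

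Among the 5 polymerase and primase members, P2 and P1 libraries did not overlap for the primase catalytic subunit, and overlapped for the other members. Prim1, which makes the RNA primers, had 17.4, 18.1 and 17.0 FPKM in P2, against 15.4, 16.6 and 15.3 FPKM in P1. All P2 values were higher, by a margin smaller than the spread within either age. Its log2 change was 0.15 ± 0.047 (limma, Benjamini-Hochberg adjusted p = 0.205), and it was -0.017 with equal FPKM sums. Pola1, the catalytic subunit of DNA polymerase alpha, which extends those primers, had 5.88, 6.95 and 6.60 FPKM in P2, against 5.87, 6.24 and 6.68 FPKM in P1. The ages covered nearly the same range. Pole, the catalytic subunit of the leading-strand polymerase epsilon, had 7.65, 8.19 and 7.82 FPKM in P2, against 7.48, 8.76 and 8.09 FPKM in P1. The P2 values lay inside the P1 range. Pola2, the accessory subunit of polymerase alpha, averaged 15.5 FPKM in P2 and 15.9 FPKM in P1. Pold1, the catalytic subunit of the lagging-strand polymerase delta, averaged 19.1 FPKM in P2 and 18.9 FPKM in P1. Of the 5 genes 3 had an estimate above 0 and none with equal FPKM sums, and the median log2 change was 0.012. Levels within a complex were uneven. Prim1 stood 2.61 times above Pola1 in mean FPKM, and in polymerase epsilon the small subunit gene Pole4, at 36.0 FPKM, stood 6.55 times above Pole2, at 5.50 FPKM.

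The sliding clamp and its loader had a median log2 change of 0.060, and all 5 genes overlapped between ages. Pcna, the ring that tethers polymerases to DNA, had 59.6, 64.5 and 56.2 FPKM in P2, against 49.9, 56.8 and 58.4 FPKM in P1. The lowest P2 library lay below P1 replicates 2 and 3. Its mean was 60.1 ± 4.19 FPKM in P2 and 55.1 ± 4.52 FPKM in P1, with a log2 change of 0.12 ± 0.077 (Benjamini-Hochberg adjusted p = 0.439 in limma). The processed copy Pcna-ps2 was listed at 22.9, 24.8 and 23.9 FPKM in P2, against 21.4, 22.5 and 23.2 FPKM in P1. A near-identical copy can share fragments with its parent, so the split between them is uncertain. Summed, Pcna and Pcna-ps2 came to 83.9 ± 4.79 FPKM in P2 and 77.4 ± 5.44 FPKM in P1. Rfc4, a small subunit of the loader that opens the ring, had 18.1, 20.2 and 20.4 FPKM in P2, against 16.2, 18.7 and 19.2 FPKM in P1. Replicate 1 was the lowest library at both ages, and the ages overlapped. The other small subunits averaged 29.4 FPKM in P2 and 29.2 FPKM in P1 for Rfc2, 12.7 FPKM in P2 and 12.8 FPKM in P1 for Rfc3, and 16.4 FPKM in P2 and 15.7 FPKM in P1 for Rfc5. Their log2 changes were 0.011, -0.0053 and 0.060. Over the 5 genes 4 estimates were above 0, and none with equal FPKM sums.

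The subunits of RPA, the trimer that coats single-stranded DNA behind the helicase, had estimates of unlike sign, Rpa1 above 0 and Rpa2 and Rpa3 below 0, while all 3 were below 0 with equal FPKM sums. Rpa1, the largest subunit, had 49.2, 50.01 and 49.8 FPKM in P2, against 46.1, 47.7 and 48.1 FPKM in P1. Every P2 library lay above every P1 library. Its log2 change was 0.069 ± 0.033, and it was -0.099 with equal FPKM sums. Rpa2, the middle subunit, had 16.9, 19.0 and 19.3 FPKM in P2, against 19.6, 21.8 and 19.7 FPKM in P1. Here every P2 library lay below every P1 library, with a log2 change of -0.14 ± 0.068. Rpa3, the smallest subunit, averaged 25.2 ± 2.00 FPKM in P2 and 27.3 ± 0.686 FPKM in P1, and the highest P2 library overlapped P1. None passed the limma test (Benjamini-Hochberg adjusted p = 0.324 for Rpa1, 0.339 for Rpa2 and 0.38 for Rpa3).

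Shares within a complex do not depend on how a whole library is scaled. They were computed after the levels had been seen, and carry no test. Mcm2 made up 17.93%, 17.31% and 17.19% of the summed FPKM of Mcm2 to Mcm7 in P2 replicates 1 to 3, against 16.35%, 15.95% and 15.86% in P1 replicates 1 to 3. The Mcm3 share was 13.55%, 14.02% and 13.93% in P2, against 14.93%, 14.94% and 14.43% in P1, and the Mcm7 share was 20.66%, 19.95% and 20.23% in P2, against 21.07%, 20.77% and 21.38% in P1. The ages did not overlap for these 3 subunits, while Mcm4, Mcm5 and Mcm6 overlapped. In RPA, Rpa1 made up 55.23%, 52.71% and 51.88% in P2, against 49.96%, 49.18% and 50.28% in P1. The Rpa2 share was 19.01%, 20.02% and 20.17% in P2, against 21.21%, 22.48% and 20.54% in P1, and that of Rpa3 was 25.76%, 27.27% and 27.95% in P2, against 28.83%, 28.34% and 29.18% in P1. All 3 RPA subunits thus had shares that did not overlap, Rpa1 higher and the other subunits lower in P2. The shares of 1 complex sum to 100%, so they are not independent of each other. Among single genes, 14.4% of all tested had P2 wholly above P1 and 10.6% wholly below. No such background is given here for shares. In GINS and replication factor C all subunit shares overlapped between ages.

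**Figure D3:**
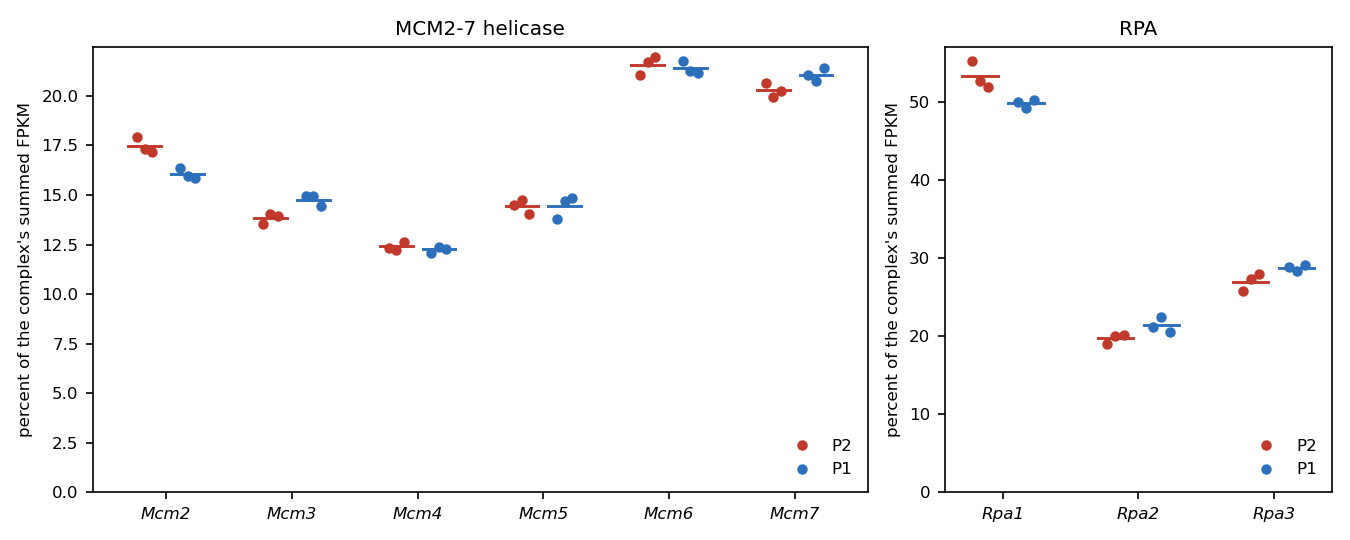
Each subunit's percent of the summed FPKM of its complex, for MCM2-7 (left panel) and RPA (right panel), with 1 point per library, a bar at the mean of 3 libraries and P2 left of P1. Mcm2 and Rpa1 have P2 points above all P1 points, and Mcm3, Mcm7, Rpa2 and Rpa3 have P2 points below them.

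Lig1, the ligase that seals Okazaki fragments, had the lowest estimate of all members. Lig1 (chr7:13277283-13311433, GRCm38) had 16.9, 18.15 and 16.5 FPKM in P2, against 18.20, 20.2 and 18.7 FPKM in P1. P2 replicate 2 and P1 replicate 1 nearly touched, and no P2 library reached a P1 library. The mean was 17.2 ± 0.870 FPKM in P2 and 19.1 ± 1.06 FPKM in P1, for a log2 change of -0.14 ± 0.057 (Benjamini-Hochberg adjusted p = 0.26 in limma). Fen1, the nuclease that removes the flap before ligation, was not tested because its mean was below 1 FPKM. It had 0.780, 0.732 and 0.671 FPKM in P2, against 0.564, 0.581 and 0.588 FPKM in P1, with all P2 libraries above all P1 libraries. At 0.653 FPKM on average it stood far below Lig1, at 18.1 FPKM. In the annotation Fen1 (chr19:10199132-10204169) overlaps the antisense gene Gm10143 by 3253 bases and Tmem258 by 156 bases, both on the opposite strand. Gm10143 was listed at 8.42, 9.40 and 8.25 FPKM in P2, against 7.60, 7.93 and 8.30 FPKM in P1. With the strand setting of the counting not known, fragments of Fen1 and of the opposite gene cannot be told apart.

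In nucleotide supply, the ribonucleotide reductase subunits had estimates above 0, with Rrm1 below 0 at equal FPKM sums, thymidylate synthase had one below 0, and none passed the test. The median log2 change of the 3 genes was 0.12. Rrm2, the small subunit of the reductase that makes deoxynucleotides, was the most abundant member, with 57.4, 71.8 and 66.9 FPKM in P2, against 47.1, 60.9 and 60.8 FPKM in P1. Replicate 1 was the lowest library of each age, and P2 replicate 1 lay below P1 replicates 2 and 3. The mean was 65.4 ± 7.34 FPKM in P2 and 56.2 ± 7.94 FPKM in P1, and the log2 change of 0.22 ± 0.13 had an interval from -0.092 to 0.53. Tyms, which makes thymidylate, had 18.4, 19.9 and 21.2 FPKM in P2, against 21.4, 21.4 and 22.8 FPKM in P1. Its highest P2 library lay just below its lowest P1 library. The log2 change was -0.14 ± 0.060 (limma, Benjamini-Hochberg adjusted p = 0.291). Rrm1, the large subunit of the reductase, had 42.5, 50.05 and 46.1 FPKM in P2, against 39.9, 45.0 and 42.1 FPKM in P1. Replicate 1 was again the lowest at each age, and the ages overlapped. Its log2 change was 0.12 ± 0.073, and -0.046 with equal FPKM sums. The ratio of Rrm2 to Rrm1 was 1.35, 1.44 and 1.45 in P2 and 1.18, 1.35 and 1.44 in P1, so the ages overlapped. Rrm2b, the reductase subunit known from DNA repair, averaged 9.27 FPKM in P2 and 8.89 FPKM in P1.

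The 4 genes that copy chromatin and methylation marks behind the fork all had estimates below 0, under both scalings. Chaf1b, a subunit of the histone chaperone CAF-1, had 9.41, 9.92 and 9.74 FPKM in P2, against 10.04, 11.6 and 10.2 FPKM in P1. Every P2 library lay below every P1 library, and P1 replicate 2 stood highest. Its log2 change was -0.12 ± 0.061 (limma, Benjamini-Hochberg adjusted p = 0.371). Uhrf1, which recruits the maintenance methyltransferase to hemimethylated DNA, had 22.9, 23.8 and 23.4 FPKM in P2, against 22.5, 26.3 and 24.5 FPKM in P1. All P2 values fell inside the P1 range. Dnmt1, that methyltransferase, averaged 25.0 ± 0.493 FPKM in P2 and 25.6 ± 0.957 FPKM in P1. Chaf1a, the large CAF-1 subunit, averaged 5.73 ± 0.0318 FPKM in P2 and 5.87 ± 0.508 FPKM in P1, and overlaps Ubxn6 on the opposite strand by 5245 bases. For all 4 genes P1 replicate 2 was the highest of the 6 libraries. Without it the log2 changes were 0.024 for Chaf1a, -0.008 for Uhrf1, -0.006 for Dnmt1 and -0.055 for Chaf1b. The shared sign thus depended on that library.

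The 3 regulators of the G1/S transition had estimates above 0, of which 1 stayed above 0 with equal FPKM sums. Ccne2, a cyclin that activates Cdk2 at S phase entry, had the highest estimate of all members, with 10.9, 11.9 and 13.0 FPKM in P2, against 8.18, 10.2 and 10.6 FPKM in P1. The lowest P2 library stood just above the highest P1 library, and P1 replicate 1 was clearly the lowest. Its mean was 11.9 ± 1.06 FPKM in P2 and 9.67 ± 1.31 FPKM in P1, for a log2 change of 0.28 ± 0.11 (Benjamini-Hochberg adjusted p = 0.249 in limma). Ccne2 and Ints8 overlap by 5622 bases on opposite strands. E2f1, the transcription factor that drives S phase genes, had 13.1, 14.5 and 12.9 FPKM in P2, against 11.8, 12.4 and 12.8 FPKM in P1. The ages did not overlap, by a narrow margin. The log2 change was 0.12 ± 0.057, and it was -0.043 with equal FPKM sums. Ccne1, the other E-type cyclin, averaged 6.36 ± 0.797 FPKM in P2 and 5.83 ± 0.123 FPKM in P1, about 0.535 of Ccne2 in P2 and 0.610 of it in P1.

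A wider list of 68 replication genes outside the 41 gave the same count of calls. All 68 were tested, and 0 passed the limma test at a Benjamini-Hochberg adjusted p of 0.05, against 0.161% of all tested genes. At an unadjusted limma p under 0.05, 7 (10.3%) were higher and 1 (1.47%) was lower in P2, against 10.7% and 7.89% of all tested genes. All P2 libraries lay above all P1 libraries for 7 (10.3%) and below them for 2 (2.94%), against 14.4% and 10.6%. The median log2 change was 0.022, with 40 estimates above 0 and 28 below. The smallest p was that of Orc4, a further subunit of the origin recognition complex, named after its values were seen. Orc4 had 31.7, 31.8 and 31.3 FPKM in P2, against 26.3, 24.5 and 25.6 FPKM in P1. The ages were well apart, with a spread in P2 of less than 1 FPKM. Its log2 change was 0.30 ± 0.038 (limma, Benjamini-Hochberg adjusted p = 0.0673). It passed only with a filter of 5 FPKM, with genes listed at 0 left out and at a threshold of 0.10. It did not pass under any other scaling, with a pseudocount of 0.1 or after any library was dropped. Among the other genes whose ages did not overlap, also named after their values were seen, were Pole4 (39.7 FPKM in P2 and 32.3 FPKM in P1) and the ribonuclease H2 subunits Rnaseh2a (26.2 FPKM in P2 and 29.9 FPKM in P1) and Rnaseh2b (16.0 FPKM in P2 and 13.5 FPKM in P1).

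The remaining genes of that list bear on licensing control, firing and nucleotide pools. Gmnn, the inhibitor of Cdt1, averaged 35.2 FPKM at both ages, with a log2 change of 0.00046, and the ratio of Cdt1 to Gmnn was 0.466, 0.477 and 0.428 in P2, against 0.387, 0.406 and 0.394 in P1. This ratio, chosen after the levels were seen, did not overlap between ages. The origin-firing kinase Cdc7 averaged 10.4 FPKM in P2 and 9.54 FPKM in P1, and its activator Dbf4 9.95 FPKM in P2 and 9.23 FPKM in P1. Orc2, an origin recognition subunit, averaged 8.71 FPKM in P2 and 8.17 FPKM in P1. Prim2, the large primase subunit, averaged 6.67 FPKM in P2 and 6.83 FPKM in P1. Polymerase delta and epsilon subunits Pold2 (21.1 FPKM in P2 and 20.1 FPKM in P1) and Pole2 (5.53 FPKM in P2 and 5.47 FPKM in P1) overlapped between ages, as did Rfc1, the large clamp loader subunit, at 14.3 FPKM in both. Top2a, the topoisomerase that separates daughter strands, averaged 56.8 ± 3.65 FPKM in P2 and 50.5 ± 6.77 FPKM in P1. In nucleotide supply, thymidine kinase Tk1 averaged 44.5 FPKM in P2 and 46.7 FPKM in P1, and Dut, which removes dUTP, 33.3 FPKM in P2 and 31.5 FPKM in P1. Both overlapped.

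The S phase regulators and chromatin factors named next also overlapped between ages. Ccna2, the cyclin of S phase and G2, averaged 52.8 ± 6.92 FPKM in P2 and 43.4 ± 6.72 FPKM in P1, with a log2 change of 0.28 ± 0.14. Its partner kinase Cdk2 averaged 33.4 FPKM in P2 and 32.7 FPKM in P1. Of the E2F factors, the activators E2f2 (2.47 FPKM in P2 and 2.65 FPKM in P1) and E2f3 (11.9 to 15.8 FPKM in P2 and 12.3 to 17.5 FPKM in P1) and the repressors E2f7 (4.26 FPKM in P2 and 4.35 FPKM in P1) and E2f8 (5.94 FPKM in P2 and 5.88 FPKM in P1) had log2 changes between -0.15 and 0.016. The histone chaperone Asf1b averaged 15.3 ± 0.776 FPKM in P2 and 13.6 ± 3.43 FPKM in P1, and the remodeller Hells 8.84 ± 0.984 FPKM in P2 and 7.98 ± 0.898 FPKM in P1.

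By the median over members, libraries of 1 age differed more from each other than the ages did. Most members were highest in a replicate 2 library and lowest in a replicate 1 library. Of the 40 tested members, 34 were highest in a replicate 2 library, 16 of them in P2 and 18 in P1. Of all 13624 tested genes, 3746 were highest in P2 replicate 2 and 2404 in P1 replicate 2. The lowest library was a replicate 1 library for 31 members, 10 of them in P2 and 21 in P1. Over all tested genes, P2 replicate 1 was lowest for 2753 and P1 replicate 1 for 3743. The median deviation from each gene's mean log2 value was -0.029, 0.053 and 0.002 in P2 replicates 1 to 3, against -0.078, 0.046 and -0.008 in P1 replicates 1 to 3. Over all tested genes it was -0.020, 0.024 and 0.013 in P2, against -0.031, -0.004 and 0.010 in P1. The summed FPKM of the 40 members ran in the order of their median deviations. It was 769.9, 835.5 and 799.2 in P2, against 733.4, 809.6 and 783.8 in P1. In this sum P1 replicate 2 exceeded P2 replicates 1 and 3. Without P1 replicate 2 the estimate was above 0 for 31 of 40 members with a median of 0.047, and without P2 replicate 2 for 19 of 40 with a median of -0.004. The median was 0.001 without P1 replicate 1.

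**Figure D4:**
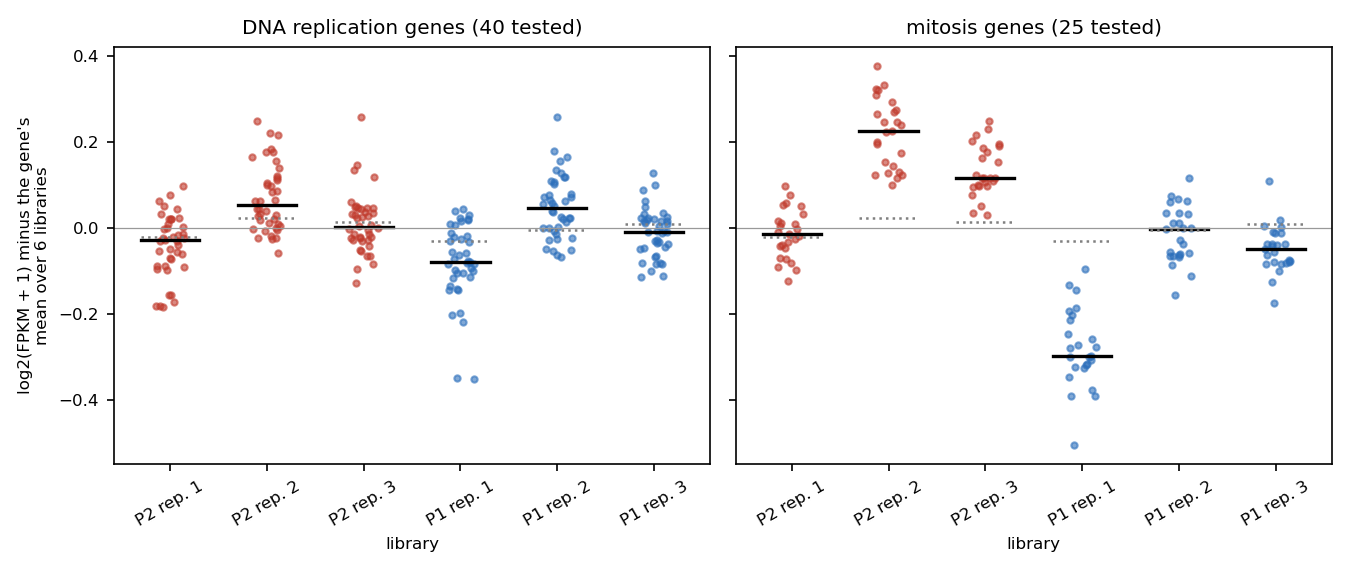
Deviation of log2(FPKM + 1) from each gene's mean over 6 libraries, 1 point per gene, for the 40 tested DNA replication genes (left) and 25 mitosis genes (right), P2 libraries left of P1 libraries. Black bars are medians of the plotted genes and dotted lines medians of all tested genes, and the replication genes are highest in both replicate 2 libraries while the mitosis genes are highest in P2 replicate 2 and lowest in P1 replicate 1.

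Genes of mitosis, the phase that follows DNA synthesis, were set beside the members. All 25 had an estimate above 0, or 17 with equal FPKM sums, and their median log2 change was 0.23, against 0.021 for the members. The ages did not overlap, with P2 above, for 15 of 25 (60%), against 15% of the members and 14.4% of all tested genes. At a Benjamini-Hochberg adjusted p of 0.05 limma called 0 of the 25, against 0.161% of all tested genes. At an unadjusted limma p under 0.05, 12 (48%) were higher in P2, against 10.7% of all tested genes. Every mitosis gene was lowest in P1 replicate 1, and without that library their median was 0.15. The difference between the lists was not tested.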

How the data were processed

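Poly(A) RNA of ventricles was measured in 6 libraries, 3 per age, grouped by sample title. The authors deposited 1 table of FPKM values, used as it stands, with all columns mapped to a library. The submitters' processing notes name FastQC, TopHat2, Cuffdiff 2.2.1 and R 3.2. For the genome build, annotation, strand setting and library scaling nothing is given there or in the labels. Symbols came from GENCODE M21 (GRCm38), which matched 37605 of 39171 identifiers and left 1566 unmatched. In all libraries 14900 genes were at 0, among them abundant heart transcripts, so such genes are described as listed at 0.

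Limma 3.58.1 (R 4.3.3) was fitted to log2(FPKM + 1) with age as the only factor and trended moderated variances. The two-sided p-values were adjusted by Benjamini-Hochberg over 13624 genes, those that averaged 1 FPKM or more, and calls were made at an adjusted 0.05. FPKM hold no counts, so no count model was used and counting precision is unknown. Among genes below 0.05 FPKM, the most frequent ratio of values to P1 replicate 1, a rough guide to relative depth, was 0.929 to 1.11.

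The members, lists and tests were chosen with earlier results of these data known. All 41 members are named. Values per library are given for the 2 members of each role with the smallest p, and for members that differ 3-fold in level from others of their complex. A fixed set of genes of the wider list is named whatever its values, apart from 1 that is not reported here. Each result was recomputed with another pseudocount (0.1), without a filter or with one of 5 FPKM, with 3 other scalings (equal FPKM sums, median ratio, quantile), with untrended variances, with quality weights per library, with replicate numbers as blocks, after dropping genes listed at 0, at a threshold of 0.10, and after dropping each library. The steps were tested on simulated data. Promoter words were searched as exact matches on both strands of RefSeq promoters (GRCm38.p6). Tables were written in Python 3.11.15 (pandas 2.3.3, numpy 2.4.6) and figures drawn in matplotlib 3.10.9.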

Additional observations from a re-analysis of the deposited data

How the results depend on the processing

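Of the DNA replication genes, limma called 0 under every alternative but equal FPKM sums, which called 8, and their smallest Benjamini-Hochberg adjusted p outside that setting was 0.0994 to 0.283. With equal sums the members' median log2 change was -0.138. Limma then called 6 of the 68 other replication genes, and of 13634 tested genes 39 higher and 2394 lower in P2. Log2 changes became -0.11 (Cdc6), -0.088 (Mcm4), -0.107 (Mcm5 and Pola1), -0.096 (Mcm6), -0.161 (Mcm7), -0.078 (Cdc45) and -0.126 (Gins1). Those of other members became -0.017 (Prim1), -0.151 (Pold1), -0.044 (Pcna and Ccne1), -0.155 (Rfc2), -0.049 (Rfc4), -0.101 (Rfc5), -0.099 (Rpa1), -0.046 (Rrm1) and -0.043 (E2f1). This setting shifts all genes together by its construction. Sign changes under median ratio scaling were those of Mcm7 (-0.005) and Rfc2 (0.0), and under quantile normalization those of Mcm7 (-0.01), Pold1 (-0.001) and Rfc2 (-0.008). Over all genes, calls higher and lower in P2 numbered 18 and 22 with a pseudocount of 0.1, 17 and 24 with a filter of 5 FPKM, 49 and 62 without genes listed at 0, and 50 and 54 at an adjusted p under 0.10, and 7 were lower without the variance trend. Among other replication genes 1, Orc4, was called with the 5 FPKM filter, without genes listed at 0 and at an adjusted p under 0.10, the last tried after seeing the data. Over all tested genes, deviations of same-numbered libraries 1 to 3 correlated at -0.011, 0.101 and 0.009. Those of differently numbered libraries correlated at -0.075 to 0.07. Among the members, 34 were highest in a replicate 2 library and 31 lowest in a replicate 1 library. Whether same-numbered libraries share a batch was not tested. The fit with the replicate block called 3 genes higher and 2 lower and 0 members, with a smallest member adjusted p of 0.239 in limma. Leaving out each library in turn gave 2 to 13 genes higher and 2 to 12 lower, 0 members, 0 other replication genes and a members' median of -0.004 to 0.047. In these fits the log2 changes that changed sign ranged from -0.112 to 0.003 for Orc6, -0.035 to 0.091 for Cdc6, -0.061 to 0.0 for Mcm3, -0.02 to 0.019 for Mcm7, -0.16 to 0.008 for Mcm10, -0.031 to 0.115 for Gins1, -0.077 to 0.017 for Gins3, -0.054 to 0.053 for Gins4, -0.005 to 0.099 for Pola1, -0.083 to 0.014 for Pola2, -0.014 to 0.051 for Pold1, -0.085 to 0.017 for Pole, -0.01 to 0.042 for Rfc2, -0.048 to 0.023 for Rfc3, -0.013 to 0.107 for Rfc5 and -0.083 to 0.024 for Chaf1a. Apart from the scaling, the cause of these shifts was not tested. Depth limits are unknown, because FPKM keep no counts.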
